A study of Mus musculus with 12 samples.

Results

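5 closely spaced pairs of tRNA genes, 10 genes in all, were examined for RNA polymerase III (Pol III), RNA polymerase II (Pol II) and histone signal in mouse liver. They were taken by position, as 7 stretches of the deposited coverage files. A stretch held both genes of a pair, except in the Pro and His pairs, where each gene had its own stretch. The pairs were Lys with Lys and Pro with Pro on chromosome 1, Ala with Gly and His with His on chromosome 2, and Phe with Asn on chromosome 10. The series as a whole held 396 predicted tRNA genes. Of its neighbouring genes, 91 pairs had under 1000 bp between gene bodies, so 86 other pairs stood beside these 5. In each pair the gene at the lower chromosome coordinate is called the lower gene and the other the higher gene.

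The study measured, by chromatin immunoprecipitation with sequencing (ChIP-seq), which Pol III genes of the liver carry the polymerase and which carry Pol II and histone marks. Its 12 libraries form 6 groups of 2. RPC1 and RPC4 libraries were made with antibodies against 2 subunits of Pol III, RPB2 libraries with an antibody against a subunit of Pol II, and input libraries from chromatin with no immunoprecipitation. The remaining groups are named here after their titles, H3K4-titled and H3K36-titled, because their labels contradict themselves: the antibody field of the H3K4-titled libraries names H3K36me3, and that of the H3K36-titled libraries names H3K4me3. The track headers follow the titles. All animals were C57/BL6 males of 12 to 14 weeks, with no mutation and no drug given in the labels. They were kept in 12 h light and 12 h dark for 2 weeks and then, in the same cycle, fed only between Zeitgeber times 12 and 24 h (ZT, counted from lights on) for 7 days. Livers were taken from 5 mice at ZT 2 h and from 5 at ZT 26 h, with ZT 26 h as the biological replicate. Neither the time of each numbered replicate nor any pooling of livers is stated, so p-values measure the spread between libraries. A liver holds several cell types, and binding in fewer cells and less binding per cell cannot be told apart. The files cover stretches around Pol III genes, so markers of liver cells were not used here.

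Over the 532 stretches common to all files, total coverage divided by the read length of 76 bp came to 82276 to 160705 reads in Pol III libraries. It came to 17033 and 26665 reads in H3K4-titled, 1754 and 1273 in H3K36-titled, 14779 and 13849 in RPB2 and 3563 and 3365 in input libraries. All levels below are mean coverage in reads per base, as deposited, over a window of the gene body and 50 bp on each side. In such a window 1 read alone gives less than 0.5 reads per base, so input and H3K36-titled values rest on a few reads.

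tRNA genes carry their promoter inside the transcribed sequence. The factor TFIIIC binds 2 internal elements, the A box and the B box, and places TFIIIB upstream of the start, which in turn recruits Pol III. The polymerase stops at a run of T residues shortly after the gene. RPC1 is the largest subunit and forms part of the catalytic centre, whereas RPC4 belongs to a subcomplex with roles in initiation and termination. H3K4me3 is the mark best known from active Pol II promoters, and it is also known to lie near Pol III genes in use.

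The 10 gene sequences are printed because the Lys pair and the His pair hold the same gene sequence in both positions. They were read from the mm9 genome (NCBIM37) by coordinates and are given 5′ to 3′ on the strand of the gene. The first run of capitals is the A box, searched in the first 25 bases, and the second the B box (motif GTTCNANNC), both searched on the gene's own strand only. All 10 genes held both motifs, and so did most predicted tRNA genes (97.7% for the A box and 95.5% for the B box, of 396).
Lys (TTT), lower gene: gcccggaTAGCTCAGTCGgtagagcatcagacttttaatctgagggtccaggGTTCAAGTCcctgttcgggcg
Lys (TTT), higher gene: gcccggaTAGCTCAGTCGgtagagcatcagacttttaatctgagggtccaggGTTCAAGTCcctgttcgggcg
Pro (AGG), lower gene: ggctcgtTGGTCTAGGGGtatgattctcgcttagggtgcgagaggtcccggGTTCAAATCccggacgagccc
Pro (CGG), higher gene: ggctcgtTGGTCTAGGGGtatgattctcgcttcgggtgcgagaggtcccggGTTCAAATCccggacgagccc
Ala (CGC), lower gene: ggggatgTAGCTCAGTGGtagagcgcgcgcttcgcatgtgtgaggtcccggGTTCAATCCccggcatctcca
Gly (GCC), higher gene: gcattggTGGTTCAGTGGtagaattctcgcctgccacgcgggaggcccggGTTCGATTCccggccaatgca
Phe (GAA), lower gene: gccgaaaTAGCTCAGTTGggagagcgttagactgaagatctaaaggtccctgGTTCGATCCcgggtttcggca
Asn (GTT), higher gene: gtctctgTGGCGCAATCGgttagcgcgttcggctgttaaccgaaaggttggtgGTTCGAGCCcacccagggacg
His (GTG), lower gene: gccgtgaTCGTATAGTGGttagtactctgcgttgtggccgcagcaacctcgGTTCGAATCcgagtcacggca
His (GTG), higher gene: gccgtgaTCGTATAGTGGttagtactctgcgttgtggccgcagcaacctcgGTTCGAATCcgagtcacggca

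3 pairs were convergent, with both genes transcribed toward the gap. The Lys genes lay at chr1:134930539-134930611 on the plus strand and chr1:134930904-134930976 on the minus strand, 292 bp apart. They were identical over all 73 bases and intergenic, 8596 bp from the nearest start of a protein-coding transcript (Mdm4, a negative regulator of p53). The Pro genes lay at chr1:167571765-167571836 on the plus strand and chr1:167572402-167572473 on the minus strand, 565 bp apart. The middle of their gap is not covered by the files. They were 98.6% identical and differed by the substitution A33C (lower gene's base, position counted from 1 at the gene's 5′ end, higher gene's base), which lies in the anticodon. They were intergenic, 7093 bp from the nearest coding start (Mpzl1). The Ala gene at chr2:57034489-57034560 on the plus strand and the Gly gene at chr2:57034805-57034875 on the minus strand were 244 bp apart. Both lay in an intron of the long noncoding RNA 4930555B11Rik, whose nearest annotated start is 247 bp outside the pair.

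2 pairs were divergent, with both genes transcribed away from the gap. The Phe gene at chr10:79711709-79711781 on the minus strand and the Asn gene at chr10:79711904-79711977 on the plus strand were 122 bp apart, the shortest gap of the 5. Library fragments were about 250 bp long with their adaptors, so a single fragment could span this gap. Ndufs7, which codes for a subunit of respiratory complex I, starts here: 1 annotated transcript begins in the gap at position 79711866, its first exon overlaps the Asn gene, and 4 others begin 217 to 253 bp beyond the end of the Asn gene. The His genes lay at chr2:122203099-122203170 on the minus strand and chr2:122203704-122203775 on the plus strand, 533 bp apart. They were identical over all 72 bases and intergenic, 8201 bp from the nearest coding start (Shf). As in the Pro pair, the middle of the gap between the His genes is not covered by the files. Of all 91 neighbouring pairs, 15 were convergent and 18 divergent. The other 58 were in tandem, an arrangement not found among these 5.

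The identical genes differed in what follows them. The 30 bases after each gene are printed with runs of at least 4 T in capitals, since Pol III stops at such runs. The Lys genes had their first run 7 and 9 bp after the gene. The His genes had none in these 30 bases, and their first runs began 34 bp after the lower and 31 bp after the higher gene. A T run within 50 bp followed 88.1% of the 396 predicted genes.
Lys (TTT), after the lower gene: cttgtcTTTTTaaaaTTTTTctcccccact
Lys (TTT), after the higher gene: gctacaaaTTTTacacgatgtttcatactt
His (GTG), after the lower gene: ttgtggcaacaatggcacggcaagggagct
His (GTG), after the higher gene: ttgtggcaacaatggtacggcaagggcgcc
These bases were 51.4% identical after the Lys genes and 90% identical after the His genes. The 150 bases before the genes were 51.8% identical between the Lys genes and 53.6% between the His genes. In pairs of different genes the same measure, which allows gaps, gave 55.1% before Phe and Asn and 48.8% before Ala and Gly.

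Pol III coverage on the 10 genes ran from 15.7 ± 4.49 reads per base (SD, n = 4) at the higher Lys gene to 393.2 ± 129 (SD, n = 4) at the higher His gene. These SDs include the difference in level between RPC1 and RPC4 libraries. Among the 396 predicted tRNA genes the higher His gene ranked 2, the Asn gene 7, the lower His gene 12 and the Phe gene 42. The higher and lower Pro genes ranked 105 and 127, the Ala gene 112, the lower Lys gene 148, the Gly gene 158 and the higher Lys gene 216. Against input, limma called 10 of 10 genes above, by log2 folds of 4.75 to 8.72, with each library scaled to the windows of lowest Pol III (the anchored scaling). That scaling called 73.2% of all 496 windows tested above input, and 71.5% of the 347 windows of predicted tRNA genes among them. It called 0 windows below input, since the windows it scales to are chosen by the same Pol III coverage that is tested. With each library scaled to its file total, 6 of 10 genes were above input, against 23.8% of all windows. The 4 not called were both Lys genes, the Gly gene and the lower His gene. With file totals 0 of 10 were called below input, against 39.9% of all windows.

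In the convergent Lys pair, Pol III was 4.42-fold higher on the lower gene than on its identical partner. Coverage on the lower gene was 71.2 and 42.5 in the RPC1 libraries and 73.8 and 98.9 in the RPC4 libraries. On the higher gene it was 13.2 and 12.5 in RPC1 libraries and 14.9 and 22.2 in RPC4 libraries. The values of the 2 genes did not overlap. The log2 ratio of lower to higher gene was 2.15 (SE 0.14, limma adjusted p = 6.02e-33), and single libraries gave 1.75 to 2.41. Input held 0.439 and 0.636 reads per base on the lower gene and 0.439 and 0.133 on the higher. In the lower window 56.1% of bases lay only in 76-mers that occur once in mm9, against 100% in the higher window. Over such bases alone the log2 ratio was 1.97.

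In the convergent Pro pair the difference was small. Coverage on the lower gene was 86.6 and 62.0 in RPC1 libraries and 120.9 and 129.5 in RPC4 libraries. On the higher gene it was 109.5 and 87.2 in RPC1 libraries and 144.5 and 143.9 in RPC4 libraries. The higher gene had more Pol III in each of the 4 libraries, although the ranges of the genes overlapped. The log2 ratio was -0.31 (SE 0.10, limma adjusted p = 0.00196), a 1.24-fold difference.

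In the convergent Ala and Gly pair the Ala gene carried 1.97-fold more Pol III. Coverage was 101.2 and 85.4 in RPC1 libraries and 135.1 and 147.0 in RPC4 libraries on the Ala gene. It was 57.3 and 30.3 in RPC1 libraries and 79.1 and 83.0 in RPC4 libraries on the Gly gene. The ranges did not overlap. The log2 ratio was 0.97 (SE 0.11, limma adjusted p = 2.22e-16), and both windows were 100% unique.

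In the divergent Phe and Asn pair the Asn gene carried 1.53-fold more. Coverage on the Phe gene was 210.9 and 158.7 in RPC1 libraries and 214.6 and 239.1 in RPC4 libraries. On the Asn gene it was 297.6 and 198.8 in RPC1 libraries and 377.1 and 419.3 in RPC4 libraries. The Asn gene was higher in every library, while the ranges of the genes overlapped. The log2 ratio was -0.61 (SE 0.07, limma adjusted p = 1.84e-14). Input was also lower on the Phe gene, at 1.82 and 1.08 reads per base, than on the Asn gene, at 2.59 and 4.18. In the Asn window 55.2% of bases were unique, and some of its 76-mers had 4 copies in mm9. Over unique bases the log2 ratio was -0.53.

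In the divergent His pair the higher gene carried 1.44-fold more Pol III than its identical partner. Coverage on the lower gene was 250.7 and 174.8 in RPC1 libraries and 328.0 and 320.9 in RPC4 libraries. On the higher gene it was 326.7 and 248.0 in RPC1 libraries and 529.7 and 468.2 in RPC4 libraries. The higher gene was above its partner in each library, with overlapping ranges. The log2 ratio was -0.53 (SE 0.07, limma adjusted p = 7.91e-13). 37.2% of bases were unique in the lower window and 43.6% in the higher, and some 76-mers had 8 copies in mm9. Over the unique bases the log2 ratio was -0.61.

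Pol III thus differed between the genes in 5 of 5 pairs at an adjusted p under 0.05, but so it did in 87.8% of all 82 neighbouring pairs tested. The median absolute log2 ratio was 0.61 in these 5 pairs and 0.86 in the 77 others, and 11 other pairs had a larger one than the Lys pair. Some of the others repeat each other's values, such as Gly (TCC) with Asp (GTC) at 1.083 (SE 0.138) in separate places. Each of them counts as a separate pair in every share and median over pairs given here, so repeated values enter more than once. With 2 residual degrees of freedom, limma took the spread of each pair wholly from the trend over all pairs, which makes these p-values small. A limma fit that RPB2 and H3K4-titled libraries shared was added after seeing the data. Its adjusted p was 0.00337 in the Lys pair and 0.0206 for Ala with Gly. It was 0.0501 in the His pair, 0.0502 for Phe with Asn and 0.269 in the Pro pair. The share of all pairs called in that fit is not given here. The ratio in Pol III minus the ratio in input, in a fit of 12 libraries, was called in 0 of 5 pairs (0 at an unadjusted p under 0.05) and in 12.2% of all pairs. That difference had standard errors of 0.60 to 1.09. It was 1.63 for the Lys pair, 0.03 for the Pro pair, 1.23 for Ala with Gly, 0.45 for Phe with Asn and -1.48 for the His pair. The sign changed in the Pro pair and in Phe with Asn, by values smaller than their standard errors.

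**Figure D1:**
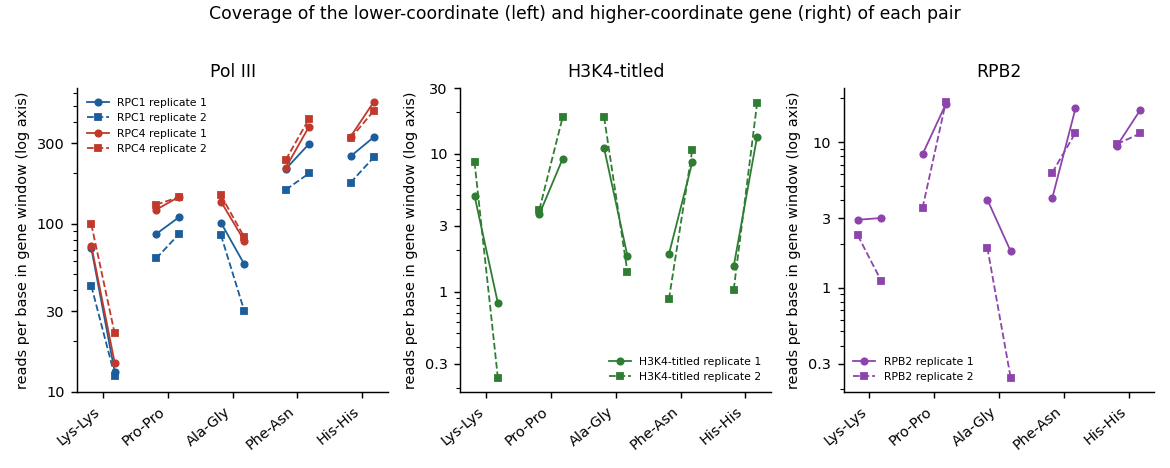
Mean coverage in reads per base (log axes) over the window of the lower gene (left point) and the higher gene (right point) of each pair, with a line per library, for Pol III, H3K4-titled and RPB2 libraries. The lower gene is above the higher one in all Pol III and H3K4-titled libraries for Lys-Lys and Ala-Gly, and below it in all of them for Pro-Pro, Phe-Asn and His-His.

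The median place of the highest coverage in a gene window differed between RPC1 and RPC4 libraries, without a test. The highest RPC1 coverage in a gene window lay at a median of base -9 (counted from the gene's first base, over 20 values from 10 genes and 2 libraries, range -49 to 62.5). The highest RPC4 coverage lay at a median of base 57.5 (range -47 to 110). On the higher His gene, for example, RPC4 peaked at bases 89 and 99, with 782 and 690 reads per base, whereas RPC1 peaked at bases 62.5 and -9, with 370 and 279. The Phe values (RPC1 -49 and -41, RPC4 -47 and -43) and the Asn values for RPC1 (-42 and -47) lay in the gap these genes share. They were near the window edge, where coverage of the 2 genes cannot be told apart. The log2 ratio of lower to higher gene differed between the subunits in 1 of 5 pairs, against 17.1% of all pairs. That pair was Phe with Asn, where RPC1 minus RPC4 was 0.40 (SE 0.14, limma adjusted p = 0.0423). The call was lost without any 1 of the 4 Pol III libraries (adjusted p = 0.132 to 0.408) and over unique bases alone (adjusted p = 0.162).

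**Figure D2:**
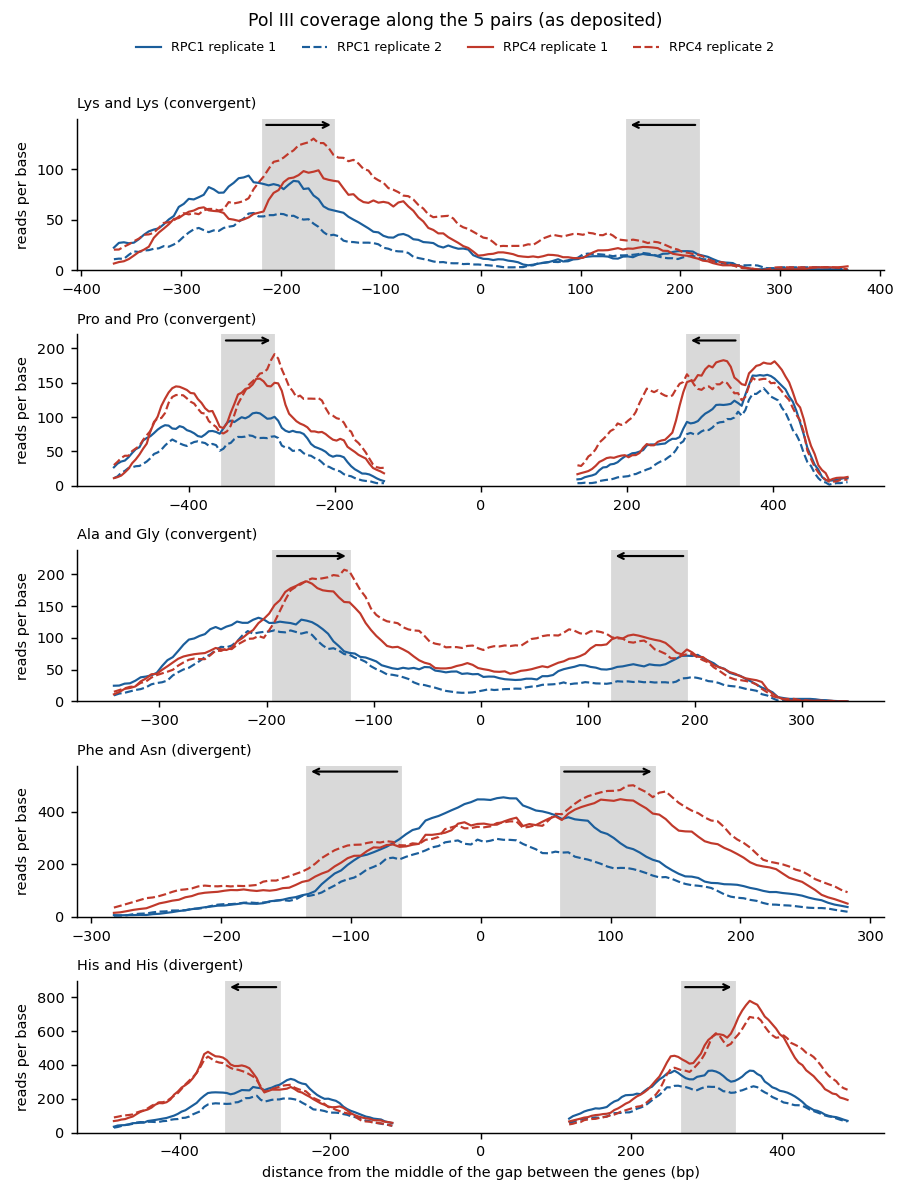
Deposited Pol III coverage in reads per base along the 5 pairs, against the distance in bp from the middle of the gap; grey bands are gene bodies, arrows give their direction, and lines are the 4 Pol III libraries. In Phe and Asn the RPC1 lines are highest in the gap and the RPC4 lines over the Asn gene, while in His and His the RPC4 lines reach 782 and 690 reads per base past the middle of the higher gene. Lines break where the files give no coverage.

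Between the genes was compared with outside by taking up to 150 bp from each gene body on either side, cut at the middle of the gap and to the same length outside. In convergent pairs the bases between the genes are downstream of both, and in divergent pairs upstream of both. Pol III coverage differed between the zones in 1 of 5 pairs, against 28% of all 82 pairs. That was Phe with Asn, where coverage between the genes exceeded that outside by a log2 ratio of 1.13 (SE 0.33, limma adjusted p = 0.037). On the Phe gene's side, RPC1 coverage was 384.7 and 266.2 between and 60.4 and 59.4 outside, and RPC4 coverage 317.7 and 312.6 between and 107.9 and 137.5 outside. On the Asn gene's side, RPC1 coverage was 425.8 and 273.0 between and 152.8 and 118.6 outside, while RPC4 coverage was 360.9 and 355.7 between and 311.2 and 399.4 outside. RPC4 replicate 2 was thus the library that held more outside than between on that side. With the gap at 122 bp, coverage from the Phe and from the Asn gene cannot be told apart in it. The call was lost when any 1 of the Pol III libraries was left out (adjusted p = 0.0895 to 0.166), with log2 ratios of 1.04 to 1.23, and against input (adjusted p = 0.598).

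The other pairs had Pol III log2 ratios of between to outside near 0 or below it. They were 0.08 (SE 0.17) in the Lys pair, 0.11 (SE 0.21) for Ala with Gly, -0.58 (SE 0.24, limma adjusted p = 0.0946) in the Pro pair and -0.50 (SE 0.21, limma adjusted p = 0.0946) in the His pair. In the Lys pair coverage was uneven around the lower gene, with RPC1 at 33.3 and 17 between and 62.2 and 33.4 outside, and RPC4 at 53.4 and 73.3 between and 43.5 and 52.4 outside. In the His pair RPC4 at the higher gene was 208.0 and 163.7 between and 482.8 and 501.0 outside, while RPC1 there was 216.3 and 145.2 between and 214.1 and 171.2 outside.

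Between-to-outside ratios were lower in both RPC1 libraries than in both RPC4 libraries in the 3 convergent pairs and higher in the 2 divergent ones. RPC1 minus RPC4, a difference of log2 ratios of between to outside, was -1.28 in the Lys pair, -0.75 in the Pro pair and -1.18 for Ala with Gly, all convergent. It was 1.25 for Phe with Asn and 1.25 in the His pair, both divergent. This comparison was added after the values were seen, and limma called 0 of 5 pairs (3 at an unadjusted p under 0.05), against 1.22% of all pairs. Adjusted p-values ran from 0.053 in the Lys pair to 0.344 in the Pro pair. With only the Pol III libraries in the fit, all 5 were called (adjusted p = 6.99e-08 to 0.0097). The share of all pairs called in that fit was not recorded, so this count cannot be set against it. Other pairs had medians of -1.05 over 12 convergent and 1.10 over 16 divergent pairs. Among 132 single tRNA genes with enough flank coverage, of 245, the median log2 ratio of upstream to downstream was 0.61 for RPC1 and -0.44 for RPC4.

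RPB2 coverage was lowest on the Gly and Lys genes and highest on the higher Pro gene. With the anchored scaling it was above input at 7 of 10 genes, against 36.9% of all windows and 40.1% of windows of tRNA genes. With file totals it was above at 2 of 10, the higher Pro gene (adjusted p = 5.94e-04) and the higher His gene (adjusted p = 0.0344), against 6.45%. The highest levels were 18.3 and 18.9 reads per base at the higher Pro gene, which ranked 12 of 396. The Asn gene held 17.02 and 11.6, the higher His gene 16.6 and 11.5 and the lower His gene 9.43 and 9.69. The lower Pro gene held 8.25 and 3.53, the Phe gene 4.095 and 6.15, the Ala gene 4.02 and 1.88, and the lower Lys gene 2.93 and 2.29. The higher Lys gene held 3.01 and 1.12, and the Gly gene 1.78 and 0.240, where 0.240 is less than 1 read in the window. Input ran from 0 to 4.18 over the 10 genes. The anchored count fell to 3 without RPB2 replicate 1, 3 without RPB2 replicate 2, 4 without input replicate 1, 4 without input replicate 2 and 4 without either RPC1 library.

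The pairs differed in RPB2 as well. In tests added after the values were seen, RPB2 differed between the genes in 3 of 5 pairs, against 43.9% of all pairs. It was lower on the lower Pro gene than on the higher one (log2 ratio -1.73, SE 0.32, limma adjusted p = 0.00238) and lower on the Phe than on the Asn gene (-1.44, SE 0.33, adjusted p = 0.00664). It was higher on the Ala than on the Gly gene (1.60, SE 0.42, adjusted p = 0.0114). The ratios were 0.43 (SE 0.64) in the Lys pair and -0.52 (SE 0.29) in the His pair, neither of them called. Over gene bodies alone 1 of 5 pairs was called, a count given without the share of all pairs over gene bodies. Leaving out 1 RPB2 library moved these ratios, to -2.34 without replicate 1 and -1.13 without replicate 2 in the Pro pair, for example.

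RPB2 between the genes differed from RPB2 outside in 1 of 5 pairs, against 32.9% of all pairs. In the Pro pair it was 6.32-fold higher outside, with a log2 ratio of between to outside of -2.66 (SE 0.34, limma adjusted p = 9.17e-04). That ratio was -3.38 without RPB2 replicate 1 and -1.94 without RPB2 replicate 2. The difference came from the side of the higher gene. There RPB2 was 4.26 and 2.01 reads per base between the genes and 34.2 and 33.2 outside, in the 150 bp upstream of the gene. On the lower gene's side it was 6.25 and 1.05 between and 7.61 and 3.33 outside. The upstream stretch of the higher Pro gene was the richest in G and C of the 10, at 67.3%, with 16 CpG. Against input the call was lost (-2.10, adjusted p = 0.396), and with only the RPB2 libraries in the fit 0 of all pairs were called.

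The other RPB2 ratios of between to outside were not called. At the Phe and Asn pair the libraries went apart, with log2 ratios of -0.45 in replicate 1 and 1.92 in replicate 2. Next to the Asn gene, RPB2 was 9.23 and 17.4 reads per base between the genes and 19.5 and 7.00 outside, toward 4 of the 5 Ndufs7 starts. In the His pair the ratio was 0.09 (SE 0.29), in the Lys pair -0.28 (SE 0.24) and for Ala with Gly -0.47 (SE 0.30).

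H3K4-titled signal differed between the genes of all 5 pairs. It was higher on the gene with more Pol III coverage. With the input ratio taken off, Pol III ratios were 0.03 (SE 0.64) in the Pro pair and 0.45 (SE 0.60) for Phe with Asn. Their sign changed, within the standard error. On the Lys genes H3K4-titled signal was 4.96 and 8.71 reads per base on the lower and 0.827 and 0.237 on the higher, a 13.4-fold difference (log2 ratio 3.75, SE 0.64, limma adjusted p = 7.65e-04). The log2 ratio was 4.93 without replicate 1 and 2.57 without replicate 2. Fewer than 2 reads lay in the window of the higher Lys gene in either library. It was 3.65 and 3.94 on the lower Pro gene and 9.22 and 18.5 on the higher (-1.78, SE 0.32, adjusted p = 0.00108). It was 11.0 and 18.4 on the Ala gene and 1.81 and 1.39 on the Gly gene (3.13, SE 0.42, adjusted p = 2.29e-04).

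In the divergent pairs the higher gene had the signal. The Phe gene had 1.87 and 0.884 reads per base and the Asn gene 8.68 and 10.6 (log2 ratio -2.86, SE 0.33, limma adjusted p = 1.50e-04). The lower His gene had 1.53 and 1.04 and the higher 13.3 and 23.2, a 13.6-fold difference between identical genes (-3.76, SE 0.29, adjusted p = 6.23e-06). Without H3K4-titled replicate 1 the log2 ratios were -3.52 for Phe with Asn and -4.42 for the His pair, and without replicate 2 they were -2.21 and -3.11 in the same order. These tests were added after the values were seen, and 5 of 5 pairs were called, against 57.3% of all pairs. With the input ratio taken off, in 12 libraries, limma adjusted p was 0.0213 for Ala with Gly and 0.0214 in the His pair. It was 0.0747 in the Lys pair, 0.0844 for Phe with Asn and 0.187 in the Pro pair. The share of all pairs called in that fit is not given here. Before input was taken off, the median absolute log2 ratio was 3.13 in the 5 pairs and 1.09 in the 77 others.

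Without input taken off, the gene with more Pol III coverage was the gene with more H3K4-titled coverage in 5 of 5 pairs, against 43 of the 77 others (55.8%). It was the gene with more mean RPB2 in 5 of 5, with 2 of them not called, against 58 of the 77 others (75.3%). Among other pairs called in both signals, these counts were 23 of 37 (62.2%) for H3K4-titled signal and 30 of 31 (96.8%) for RPB2. With the input ratio taken off, signs parted in some of the 5 pairs, but each value that changed sign was smaller than its standard error. In the Pro pair the difference from input was 0.03 (SE 0.64) for Pol III, -1.43 for H3K4-titled signal and -1.39 for RPB2. For Phe with Asn it was 0.45 (SE 0.60) for Pol III, -1.80 for H3K4-titled signal and -0.38 for RPB2. In the Lys pair it was 1.63 for Pol III, 3.23 for H3K4-titled signal and -0.09 (SE 1.19) for RPB2. These differences share the 2 input libraries. Whether the 5 pairs depart from the others in this was not tested, since the pairs were chosen with results of these data known.

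**Figure D3:**
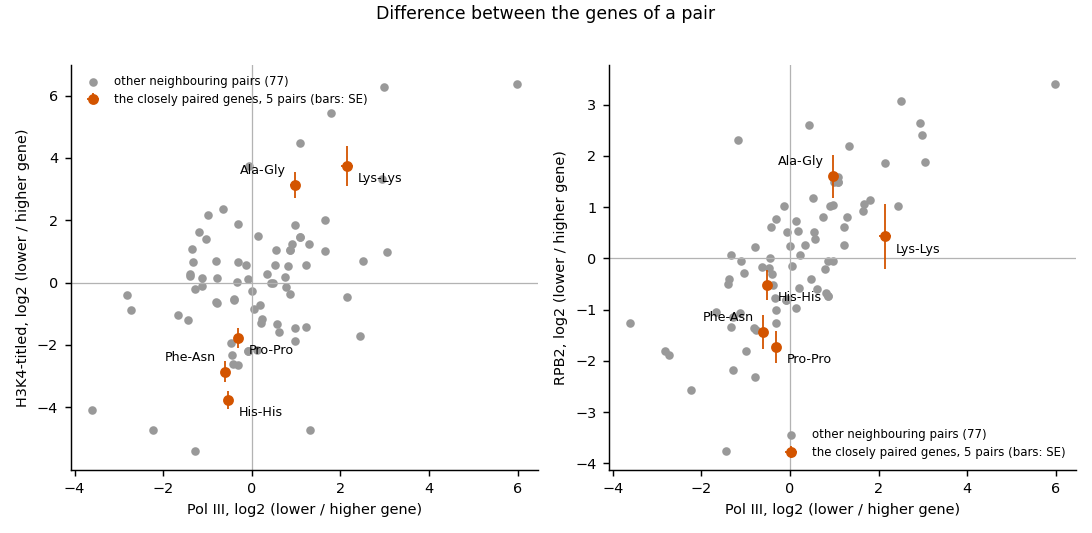
Log2 ratio of the lower to the higher gene in Pol III (x axes) against the same ratio in H3K4-titled libraries (left) and RPB2 libraries (right), for the 5 closely spaced pairs (orange, bars are SE) and 77 other neighbouring pairs (grey). No input is taken off here. The 5 pairs lie in the quadrants of equal sign in both panels, as do 43 of the 77 others in the H3K4-titled panel and 58 of them in the RPB2 panel. With the input ratio taken off, the Pol III ratio changes sign within its SE in Pro-Pro (0.03, SE 0.64) and Phe-Asn (0.45, SE 0.60).

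The place of H3K4-titled signal around the genes varied from pair to pair. Between and outside differed in 3 of 5 pairs, against 69.5% of all pairs (36.6% higher between and 32.9% higher outside). With the input ratio taken off, the same 3 were called, against 47.6% of all pairs. In the His pair the signal was 13.1-fold higher between the genes (log2 ratio 3.72, SE 0.29, limma adjusted p = 7.82e-06). The ratio was 3.07 without H3K4-titled replicate 1 and 4.36 without replicate 2. It lay on the side of the higher gene, with 54.0 and 78.1 reads per base between and 1.55 and 9.37 outside. On the lower gene's side it was 2.18 and 5.37 between and 1.16 and 0.466 outside. The covered bases between the identical genes thus held much signal next to the higher gene and little next to the lower.

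In the Lys pair H3K4-titled signal was 3.10-fold higher outside (log2 ratio of between to outside -1.63, SE 0.24, limma adjusted p = 3.94e-04). At the lower gene it was 5.00 and 4.96 between and 17.8 and 26.1 outside. At the higher gene it was 2.08 and 1.93 between and 0 and 0.521 outside. For Ala with Gly it was 2.64-fold higher outside (-1.40, SE 0.30, adjusted p = 0.00281), at -1.99 without H3K4-titled replicate 1 and -0.80 without replicate 2. Next to the Ala gene it was 11.4 and 8.81 between and 30.9 and 54.9 outside. Next to the Gly gene it was 6.34 and 5.13 between and 0.115 and 0.951 outside.

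In the Pro pair the ratio was not called (-0.39, SE 0.34, adjusted p = 0.336), and the signal was found on both sides of the higher gene. It was 18.5 and 20.6 between and 45.1 and 74.3 outside at that gene, and 18.3 and 33.7 between and 0.533 and 0.547 outside at the lower gene. At Phe with Asn the ratio was -1.05 (SE 0.47, adjusted p = 0.0792). The signal was 4.23 and 4.51 between, where 1 of the 5 Ndufs7 starts lies, and 14.1 and 18.4 outside, toward the other 4, at the Asn gene. It was 4.49 and 2.39 between and 0 and 0 outside at the Phe gene. In all 5 pairs the flank with the most H3K4-titled signal adjoined the gene with more Pol III coverage. Against input the sign for Pol III changes in the Pro pair and Phe with Asn, by values smaller than their standard errors. The same count was not made over the other pairs, and gene windows include 50 bp of each flank. The flank with the most H3K4-titled signal lay outside the pair in 4 and between the genes in the His pair, and upstream of its gene in all but Phe with Asn. Among 132 single tRNA genes, H3K4-titled signal was higher upstream at 56.1% (median log2 ratio of upstream to downstream 0.42).

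**Figure D4:**
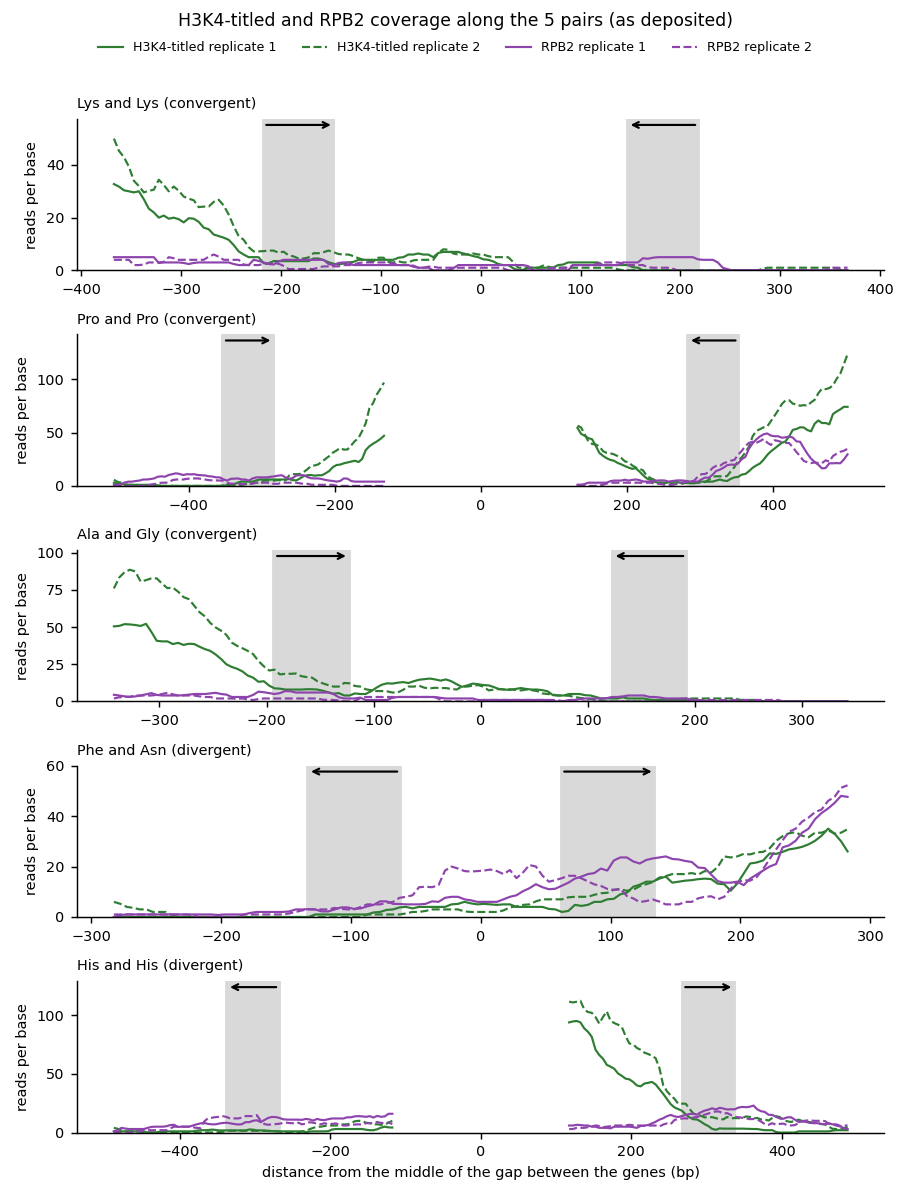
Deposited H3K4-titled and RPB2 coverage in reads per base along the 5 pairs, against the distance in bp from the middle of the gap; grey bands are gene bodies and arrows give their direction. H3K4-titled lines are high outside the lower Lys gene, the Ala gene and the higher Pro gene and on the gap side of the higher His gene, and lower over the gene bodies beside them. Outside the Asn gene H3K4-titled coverage is 14.1 and 18.4 reads per base, while RPB2 coverage is 19.5 in replicate 1 and 7.00 in replicate 2.

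Against input, H3K4-titled signal was above at 10 of 10 genes with the anchored scaling, against 67.3% of all windows and 64% of windows of tRNA genes. With file totals it was above at 2 of 10, the higher Pro and the higher His gene, against 6.05%, and below at 1 of 10, the Phe gene, against 49.4%. The scaling thus turned the direction at the Phe, Asn, Gly, lower His and higher Lys genes. The H3K4-titled libraries had almost no coverage in the windows of lowest Pol III, and their anchored scaling factors were 0.0803 and 0.303. Ratios within a library do not depend on these factors except through the pseudocount. H3K36-titled signal was above input at 0 of 10 genes by limma (4 at an unadjusted p under 0.05, all of them below input), against 2.82% of windows, and called below at 0 of 10, against 5.85%. With file totals it was above at 0 of 10, against 3.02%, and below at 6 of 10, against 23.6%. It was 0 in both libraries at 6 of the 10 genes, which allows up to 3 reads in a window.

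**Figure D5:**
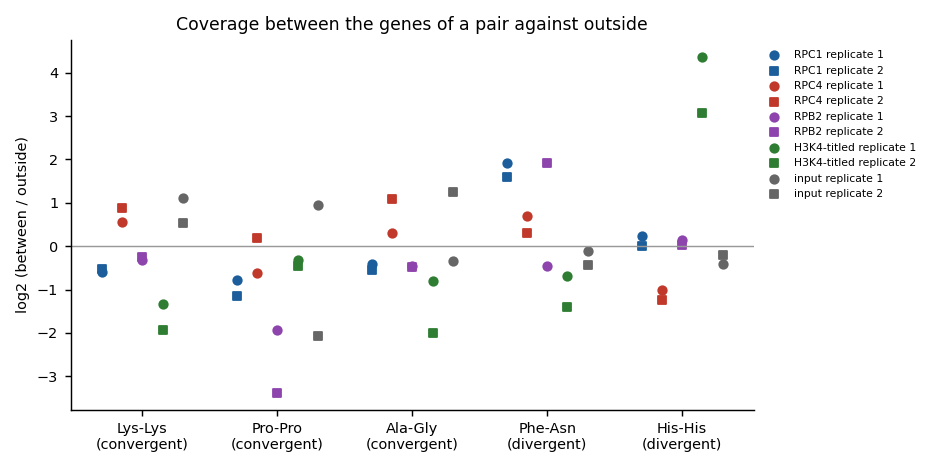
Log2 ratio of coverage between the genes of a pair to coverage outside, for each library of 5 groups (circles replicate 1, squares replicate 2). H3K4-titled points stand at 4.36 and 3.07 in the His pair and below 0 in the other pairs; RPC1 points lie below RPC4 points in the 3 convergent pairs and above them in the 2 divergent ones.

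Several of the 10 genes had more Pol III than any other gene with the same anticodon, in reads per base as the mean of 4 libraries. The Phe gene had 205.8 ± 33.8 (SD, n = 4), against at most 153.9 in the 6 other Phe (GAA) genes. The Asn gene had 323.2 ± 97.1 (SD, n = 4), against at most 261.0 in the 11 other Asn (GTT) genes. The His genes had 268.6 ± 71.6 and 393.2 ± 129 (SD, n = 4), against at most 211.2 in the 8 other His (GTG) genes. The Ala gene had 117.2 ± 28.7 (SD, n = 4), against at most 60.6 and a median of 0.351 in the 8 other Ala (CGC) genes. Of those 8, only 2 passed the coverage filter with the anchored scaling. These differences were not tested.

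The remaining genes lay within or just above the range of the others. The lower and higher Lys genes, at 71.6 and 15.7, stood on either side of the median of the 8 other Lys (TTT) genes, 38.5 (range 0.838 to 133.6). The lower Pro gene had 99.8, against a median of 34.3 in the 6 other Pro (AGG) genes (highest 160.9), and the higher Pro gene 121.3, against 9.93 and 119.2 in the 2 other Pro (CGG) genes. The Gly gene had 62.4, against a median of 41.7 in the 12 other Gly (GCC) genes (0.340 to 193.5).

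The neighbouring pair most like each of the 5 was found by the Euclidean distance over 6 group means of log2 scaled coverage, taken over both genes. Phe with Asn and the His pair had the same nearest pair, a tandem Lys (CTT) and Ala (TGC) pair on chromosome 11 (mm9, chr11:48647385-48648002), at distances of 0.97 and 1.40. Its genes had Pol III levels of 188.6 and 248.0. The Lys pair was nearest to Ile (AAT) with Phe (GAA) on chromosome 13, the Pro pair to Lys (CTT) with His (GTG) on chromosome 3, and Ala with Gly to Leu (AAG) with Leu (AAG) on chromosome 13, at distances of 1.00, 1.02 and 0.94. All of these were tandem pairs, and the median distance to other pairs was 3.29 to 4.22.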

How the data were processed

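The deposited files hold signal, as coverage in reads per base; the values show no scaling for depth by the authors, since a read lying alone adds 1 over 76 bp. Build mm9 is given per the submitters' processing notes; no source used here names the aligner, the read filter or how repeated reads were weighted, and 18.2% of values were fractional. tRNA genes were predicted by a cloverleaf search (at least 17 stem pairs) in mm9, and other annotation is GENCODE vM1. The 5 pairs, the lists and the comparisons were chosen with earlier results of these data known.

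log2 ratios and log2(scaled coverage + pseudocount) were tested with limma 3.58.1 (R 4.3.3; mean-variance trend, two-sided, Benjamini-Hochberg over all pairs or windows). The pseudocount was 0.166 (5th percentile of nonzero values). Pairs or windows under the 0.1 quantile of coverage were left out, which kept 82 of 91 pairs, 496 of 552 windows and every one of the 10 genes. The anchored scaling divides by the 10% trimmed mean over the 25% of windows with least Pol III. Named genes are the 10 members and, by rule, the nearest pair and same-anticodon counts. limma functions were tested on simulated data. Same-numbered libraries did not deviate together (correlations -0.123 to 0.116 over 15 group pairs), so replicate numbers were not used as pairs.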

Additional observations from a re-analysis of the deposited data

Results flagged for a closer look

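The ratio of the Phe to the Asn gene differed between the Pol III subunits: the log2 ratio of lower to higher gene was 0.40 greater in RPC1 than in RPC4 libraries (SE 0.14, limma adjusted p = 0.0423). RPC1 libraries gave -0.50 and -0.32 and RPC4 libraries -0.81 and -0.81, so both subunits had more signal on the Asn gene. The result was called under 8 of 17 alternatives.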

How the results depend on the processing

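The number of genes above input depended on the scaling. For most alternatives in this section, the share of all windows or pairs called is not given. Such counts of genes or pairs show a dependence on processing and cannot be set against the rest. For Pol III it was 6 with file totals and 6 with median of ratios (10 anchored), for RPB2 2 and 2 (7 anchored), and for H3K4-titled signal 2 with file totals, 3 with median of ratios and 6 with coverage as deposited (10 anchored). With file totals the log2 fold over input turned at the Ala (-0.10) and Phe (-0.20) genes for RPB2. For H3K4-titled signal it turned at the Phe (-2.62), lower His (-2.71), higher Lys (-1.45), Gly (-1.89) and Asn (-1.06) genes. It also turned with median of ratios at the Phe (-0.90), lower His (-0.99) and Gly (-0.18) genes, and with coverage as deposited at the Phe (-0.10) and lower His (-0.18) genes. RPB2 was above input at 4 genes over gene bodies only and at 4 with only tRNA gene windows in the fit, an alternative added after seeing the data. At the Gly gene RPB2 turned from below to above input with 100 bp on each side (0.20), without RPB2 replicate 2 (0.93) and without input replicate 2 (0.14).

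With the input ratio taken off, called pairs numbered 0 of 5 for Pol III between the genes of a pair, 0 for RPB2, 2 for H3K4-titled signal, 0 for Pol III between against outside and 0 for RPB2 between against outside. Turned values, none of them called, were 0.034 in the Pro pair and 0.45 for Phe with Asn (Pol III within pairs), -0.090 in the Lys pair (RPB2 within pairs), -0.73 in the Lys pair and -0.35 for Ala with Gly (Pol III between against outside), and 0.17 in the Pro pair (H3K4-titled between against outside). With 8 libraries in 1 fit, 2 of 5 pairs were called for Pol III within pairs. With only the libraries of the group tested, 3 were called for Pol III and 0 for RPB2 between against outside. RPB2 within pairs was called in 1 over gene bodies only. The cause was not tested.

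Leaving out 1 library at a time gave 0 to 2 called pairs for Pol III between against outside, 1 to 2 for RPB2 between against outside, and 3 to 8 genes above input for RPB2. Values that turned without a library ranged from -0.086 to 0.299 for Ala with Gly (Pol III between against outside), from -0.036 to 0.895 for the Lys pair (RPB2 within pairs) and from -0.45 to 1.92 for Phe with Asn (RPB2 between against outside), lowest without RPC4 replicate 2 for Ala with Gly and without RPB2 replicate 2 otherwise. RPB2 over input at the Gly gene ranged from -1.08 to 0.93. The replicate number as a block gave 5, 3 and 5 called pairs for Pol III, RPB2 and H3K4-titled signal within pairs and 1, 1 and 3 between against outside. In that block fit 10, 8, 10 and 0 genes were above input for Pol III, RPB2, H3K4-titled and H3K36-titled signal. Input, with at most 9.57 reads in a gene window, limits every comparison with it.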
